A study of Mus musculus with 18 samples.

Results

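The 37 interferon-stimulated genes described here are genes whose transcription rises when cells sense interferon, the family of secreted proteins that warn tissue of viruses and other microbes. They were taken by symbol from the table of counts, which lists 55335 genes, and all 37 were found once each and passed the filter on low counts that left 21349 genes for testing. Of them, 33 are called type I genes here, after the antiviral program that type I interferons (alpha and beta) switch on, and 4 are GTPases classed as interferon gamma genes (Gbp2, Igtp, Irgm1 and Iigp1). The division is one of convenience, since most of these genes answer to more than 1 kind of interferon.

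The levels were measured by RNA-Seq in crypts of the mouse small intestine, the epithelial pockets that hold stem and progenitor cells. KO mice had LoxP sites in both copies of Prmt1 (Prmt1 fl/fl), the gene for the main enzyme that places asymmetric dimethyl marks on arginines, and carried the Vil-CreERT2 transgene, whose villin promoter is active in intestinal epithelium, so other cells in the samples keep the gene. WT mice were littermates with the same Prmt1 fl/fl alleles but without the transgene, matched for age and gender. Mice aged 8 to 12 weeks of both genotypes received 2 mg of tamoxifen by injection into the abdomen on up to 5 consecutive days, and the intestine was taken at day 2, 7 or 14 after the first injection, with 3 mice in each of 6 groups. Day 2 samples were taken before that day's injection, so between day 2 and the later days, day and number of injections cannot be told apart.

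Type I interferons act through the receptor pair Ifnar1 and Ifnar2, and the lambda interferons, which gut epithelium answers strongly, act through Ifnlr1 and Il10rb. Both use the kinases Jak1 and Tyk2 to activate Stat2, which acts with Irf9 in a complex that binds the interferon-stimulated response element (ISRE) in promoters. Interferon gamma, made mainly by T and NK cells, acts through Ifngr1 and Ifngr2 and leads to binding at gamma-activated sites (GAS). Irgm1, Igtp, Iigp1 and Gbp2 are known for strong induction by gamma and act on the vacuoles in which bacteria and parasites grow inside cells.

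Letters like those of the binding elements can be found in the promoters of these genes. RefSeq promoter windows (build GRCm38.p6, 250 bases before to 50 after the start of transcription) were held for 26 of the 37 genes, and not for Mx1, Mx2, Parp9, Parp14, Ifi27, Iigp1, Rtp4, Dhx58, Usp18, Zbp1 and Oas2. An ISRE-type match was counted for GAAANNGAAA on either strand, and a GAS-type match for TTCNNNGAA, which reads the same on both strands. The ISRE letters were present in 17 of the 26 genes (14 of 23 type I genes and 3 of 3 GTPases) and in 3.99% of all 27025 genes with a window (3.44% of 32851 windows). The GAS letters were present in 6 of the 26 (5 type I genes and 1 GTPase) and in 9.55% of all genes (8.3% of windows). Stretches of 8 promoters are shown to let the elements of type I genes be compared with those of the GTPases. Only windows with an ISRE match before the start could be shown, so genes without a match, such as Ifit2, Oasl1 and Irf7, are absent. Each stretch reads 5' to 3' in the direction of transcription, with the bases of either match in capitals.
Isg15: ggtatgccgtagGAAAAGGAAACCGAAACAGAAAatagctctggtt
Ifit1: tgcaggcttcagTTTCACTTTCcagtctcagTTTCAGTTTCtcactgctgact
Ifit3: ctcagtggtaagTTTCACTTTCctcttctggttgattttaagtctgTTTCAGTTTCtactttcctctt
Rsad2: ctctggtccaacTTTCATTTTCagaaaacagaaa
Bst2: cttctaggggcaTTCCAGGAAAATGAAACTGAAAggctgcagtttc
Igtp: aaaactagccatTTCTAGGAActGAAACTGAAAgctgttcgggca
Irgm1: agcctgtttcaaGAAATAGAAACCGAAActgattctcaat
Gbp2: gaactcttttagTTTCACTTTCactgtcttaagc
The stretches lie at chr4:156200863-156200908, minus strand (Isg15), chr19:34640773-34640825, plus strand (Ifit1), chr19:34583361-34583428, plus strand (Ifit3) and chr12:26456551-26456584, minus strand (Rsad2), and at chr8:71537575-71537620, minus strand (Bst2), chr11:58199499-58199543, plus strand (Igtp), chr11:48871423-48871462, minus strand (Irgm1) and chr3:142620592-142620625, plus strand (Gbp2). All lie before the RefSeq start of the gene, and in the GENCODE annotation most of the Gbp2 stretch, its ISRE match included, lies in the first exon and the Irgm1 stretch lies before the coding transcripts but within an exon of a non-coding one. In Isg15, 3 ISRE matches overlap in 1 run of capitals. The Ifit1 and Ifit3 promoters each hold 2 separate matches read from the opposite strand. Igtp has a GAS match beginning at base -45 and an ISRE match beginning at base -34, counted from the start of transcription, while Bst2 has a GAS match that overlaps the first of its 2 ISRE matches. A match is a description of letters and does not show that a factor binds there.

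Total counts were 12844642 to 31493484 per library. Prmt1, the deleted gene, was at 13.1 to 17.4 CPM (counts scaled to the size of the library) in the 9 KO libraries and at 20.2 to 30.6 CPM in the 9 WT libraries, with no overlap. Markers of epithelium summed to 4567 to 8725 CPM, and all 6 passed the filter on low counts, while markers of T cells and intraepithelial lymphocytes summed to 84.5 to 283 CPM and those of myeloid cells to 19.9 to 77.1 CPM. In bulk RNA, fewer cells of a type and less RNA per cell cannot be told apart. Among the interferon-stimulated genes, WT day 2 replicate 1 had the highest level of all 18 libraries for 21 of the 37 genes, all of type I, and WT day 7 replicate 2 had the lowest level for 15. Counts of members called are given with and without these libraries and KO day 7 replicate 1 where that moves them.

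Set against their length (RPKM, which is CPM per kilobase of exon, mean of 18 libraries), the members ran from 23.98 RPKM for Ifi35 and 20.2 RPKM for the membrane protein Ifitm3, which blocks virus entry, down to 0.379 RPKM for Iigp1 and 0.378 RPKM for Ifi44. Parp14, Dtx3l, Ifit1bl1 and Parp9 followed at 14.4, 14.3, 13.3 and 12.99 RPKM. Isg15, often a sensitive reporter of interferon, was in the middle of the order at 5.69 RPKM. Rsad2, Mx2 and Mx1 were near the bottom at 0.988, 0.986 and 0.818 RPKM.

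**Figure D1:**
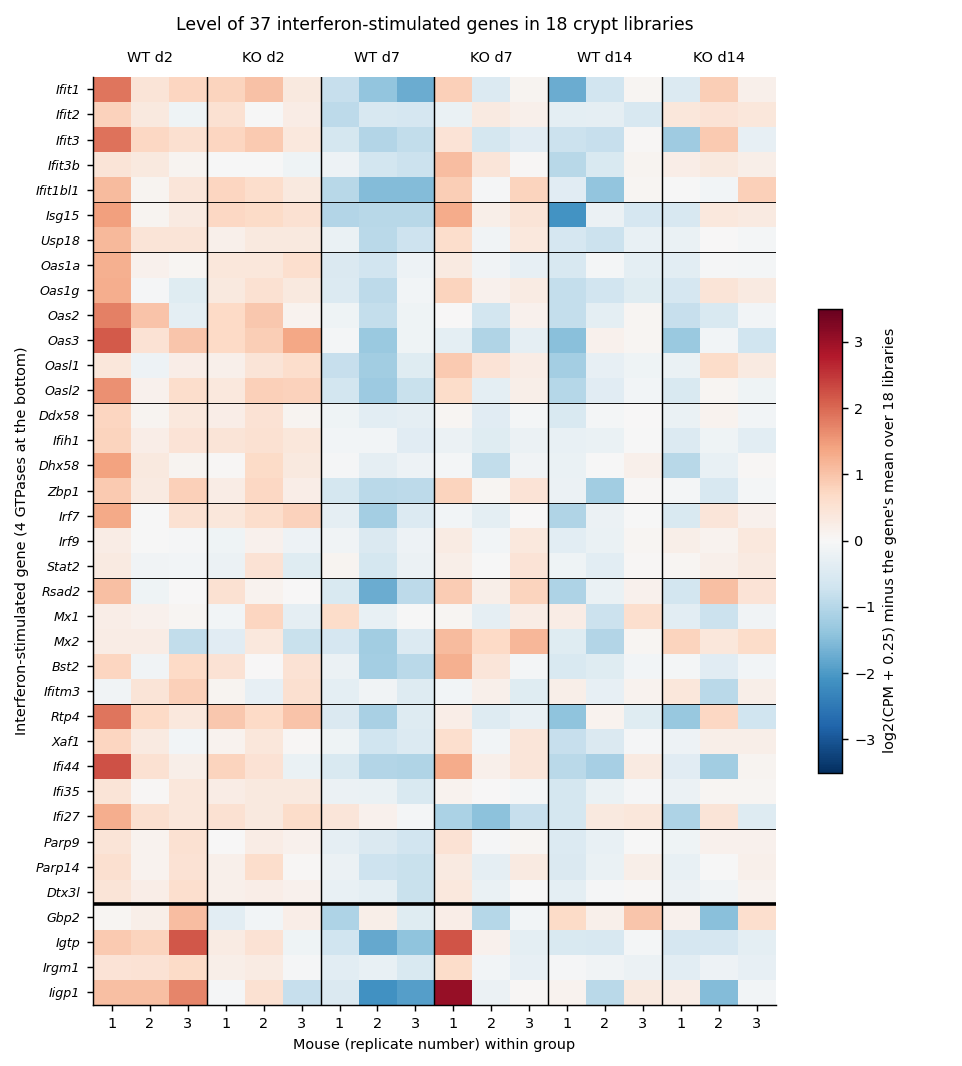
Heat map of the level of each of the 37 genes (rows, by role, GTPases under the thick line) in each of the 18 mice (columns, 3 to a group), as log2(CPM + 0.25) minus the gene's mean over all libraries. The WT day 7 group had the lowest mean of the 6 groups for 30 of the 37 genes, WT day 2 replicate 1 was the highest library for 21, and the GTPases Igtp and Iigp1 are reddest in KO day 7 replicate 1.

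At day 2, none of the 37 members was called different between KO and WT. The test was the quasi-likelihood test of edgeR at an adjusted p of 0.05 (Benjamini-Hochberg, over all genes), by which 0.0281% of all genes were higher and 0.00468% lower in KO. Without adjustment 2 members were lower at a p under 0.05, both GTPases (1.37% of all genes), and DESeq2's Wald test called 0 members. The log2 fold changes were nevertheless mostly below 0, in 34 of 37 members, with a median of -0.23 against -0.0048 over all genes tested. For 5 members every KO library was below the lowest WT library, which was so for 3.86% of all genes. These 5 were Ifit3b, Usp18, Igtp, Irgm1 and Iigp1, so 3 of the 4 GTPases and 2 of the 33 type I genes.

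Igtp, which helps to mark pathogen vacuoles, was at 30.9, 28.2 and 74.8 CPM in WT and at 19.9, 23.1 and 14.6 CPM in KO. Irgm1, a regulator of the other immunity-related GTPases and of autophagy, was at 44.1, 45.1 and 50.2 CPM in WT and at 36.6, 38.7 and 30.98 CPM in KO. Iigp1 was at 3.16, 3.16 and 5.05 CPM in WT and at 1.33, 2.11 and 0.6903 CPM in KO. In each of the 3 genes the KO mice were all lower, and WT replicate 3 was the highest mouse of its group. Their log2 fold changes were -1.22, -0.39 and -1.48, and none was called (adjusted p = 0.9995 for each).

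The direction of the type I genes at day 2 rested on 1 mouse. Isg15, a ubiquitin-like protein that is attached to other proteins, was at 9.47, 3.603 and 4.23 CPM in WT and at 5.73, 5.48 and 5.004 CPM in KO. Ifit1, which binds viral RNA, was at 36.3, 13.2 and 16.5 CPM in WT and at 16.8, 19.9 and 12.2 CPM in KO. In both genes WT replicate 1 was the highest mouse and the other WT mice were within or below the range of the KO mice. With that library left out, 25 of the 37 log2 fold changes were above 0 and the median was 0.07, with still 0 members called.

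At day 7, 19 of the 37 members were higher in KO and 1 was lower by the same test, where 7.11% of all genes were called higher and 10.2% lower. Among the type I genes 16 of 33 were higher and 1 lower, and among the GTPases 3 of 4 were higher. The log2 fold changes had a median of 0.68 over the members and 0.02 over all genes tested. Every KO library was above the highest WT library for 22 members (15.9% of all genes) and below the lowest for 1 (17.7% of all genes).

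**Figure D2:**
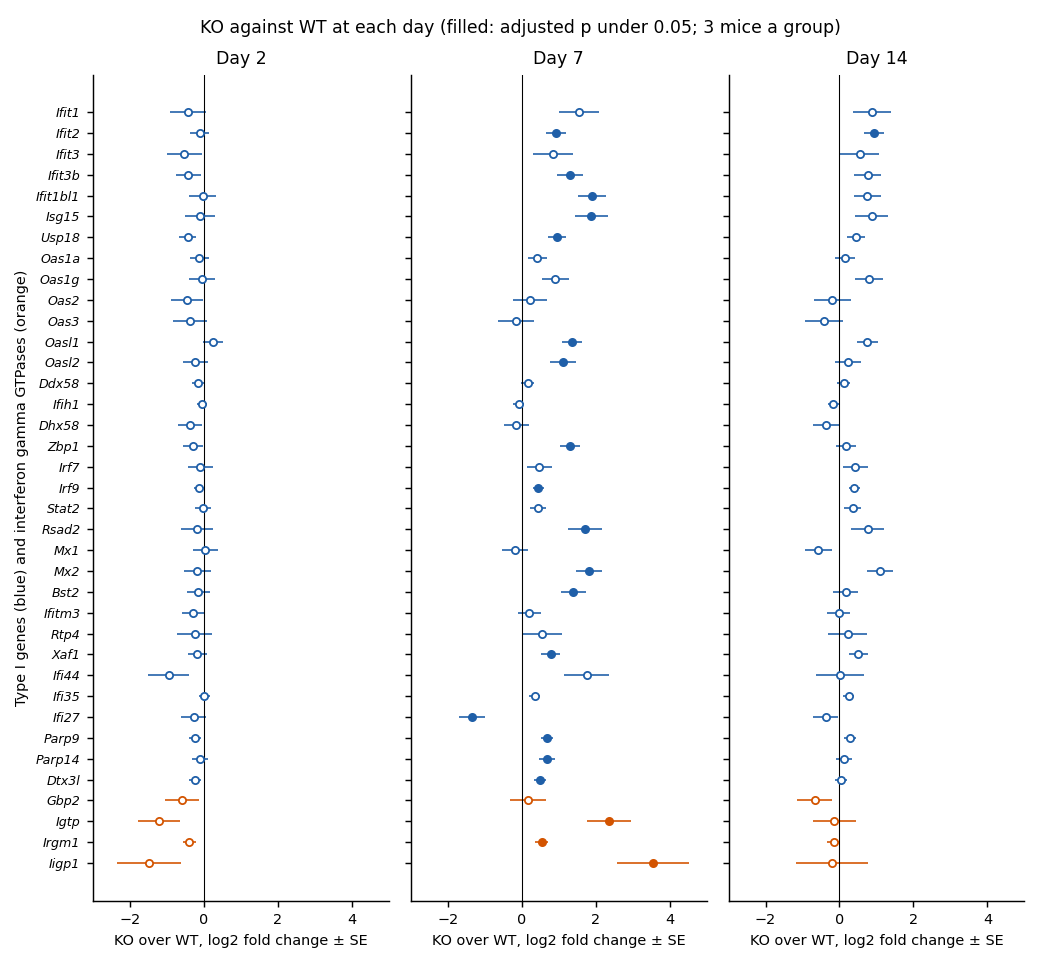
Log2 fold change of KO over WT with its standard error for each of the 37 genes (rows) at day 2, day 7 and day 14 (panels), with filled points for genes called at an adjusted p under 0.05. No point is filled at day 2, 20 are filled at day 7 and only Ifit2 is filled at day 14.

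The IFIT proteins bind foreign RNA and block its translation, and their genes lie together on chromosome 19. Of the 5 genes 3 were called higher in KO than in WT, and the KO mice were above the WT mice in all 5. Ifit1bl1 was at 13.3, 8.95 and 9.02 CPM in WT and at 47.7, 25.2 and 44.5 CPM in KO (log2 fold change 1.90 ± 0.38 SE, adjusted p = 0.00326). Ifit3b was at 0.971, 0.639 and 0.569 CPM in WT and at 2.71, 1.62 and 1.18 CPM in KO (log2 fold change 1.30 ± 0.34 SE, adjusted p = 0.0131). Ifit2, whose product promotes apoptosis of infected cells, was at 1.04, 1.41 and 1.36 CPM in WT and at 1.82, 2.81 and 2.49 CPM in KO (log2 fold change 0.92 ± 0.27 SE, adjusted p = 0.0251). The remaining pair did not pass the test although no KO mouse was as low as any WT mouse. For Ifit3 the gap was slight, with the lowest KO mouse at 1.193 CPM and the highest WT mouse at 1.187 CPM. Ifit1 was at 5.43, 3.51 and 2.72 CPM in WT and at 17.5, 6.77 and 10.4 CPM in KO (log2 fold change 1.55 ± 0.53 SE, adjusted p = 0.0582), and Ifit3 at 1.19, 0.831 and 0.964 CPM in WT and at 2.85, 1.19 and 1.44 CPM in KO (log2 fold change 0.84, adjusted p = 0.3201). Ifit3 and Ifit3b are near copies of each other, and fragments that align to both were not counted.

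Isg15 and Usp18, the protease that removes ISG15 from proteins and damps the type I receptor, were both called higher in KO. Isg15 was at 1.51, 1.597 and 1.58 CPM in WT and at 8.72, 3.93 and 4.72 CPM in KO (log2 fold change 1.88 ± 0.44 SE, adjusted p = 0.00697). Usp18 was at 4.28, 2.56 and 2.98 CPM in WT and at 8.004, 4.63 and 6.64 CPM in KO (log2 fold change 0.95 ± 0.24 SE, adjusted p = 0.0107). The WT values of Isg15 were close together, no KO mouse was within the WT range in either gene, and replicate 1 was the highest KO mouse in both.

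Some members of the OAS family, but not all, make the messenger that activates RNase L when double-stranded RNA is present. Of its 6 genes, 2 were called higher in KO, Oasl1 and Oasl2. Oasl1 was at 11.1, 8.31 and 14.5 CPM in WT and at 36.95, 27.2 and 23.5 CPM in KO (log2 fold change 1.36 ± 0.28 SE, adjusted p = 0.00272). Oasl2 was at 14.1, 9.01 and 12.8 CPM in WT and at 34.9, 17.5 and 25.98 CPM in KO (log2 fold change 1.11 ± 0.35 SE, adjusted p = 0.0381). In both genes every KO mouse was above every WT mouse. The other 4 genes, Oas1a, Oas1g, Oas2 and Oas3, had log2 fold changes of 0.42, 0.91, 0.22 and -0.15, and none was called. Oas1g was at 4.71, 3.45 and 6.22 CPM in WT and at 11.7, 7.44 and 8.17 CPM in KO, with no overlap (adjusted p = 0.104). Oas2 was at 1.48, 0.831 and 1.49 CPM in WT and at 1.69, 0.983 and 1.88 CPM in KO, and its groups overlapped, as did those of Oas1a and Oas3.

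Of the 4 sensors of nucleic acids only Zbp1, which senses Z-form nucleic acids and can start necroptosis, was called higher in KO. It was at 6.98, 5.43 and 5.61 CPM in WT and at 18.5, 11.3 and 15.1 CPM in KO (log2 fold change 1.31 ± 0.27 SE, adjusted p = 0.00284). The RNA helicases of the RIG-I family were close to 0, with log2 fold changes of 0.17 for Ddx58 (RIG-I), -0.09 for Ifih1 (MDA5) and -0.15 for Dhx58 (LGP2). Ifih1 was at 55.4, 55.3 and 44.3 CPM in WT and at 50.7, 44.2 and 51.1 CPM in KO, and Ddx58 at 37.9, 33.03 and 33.9 CPM in WT and at 44.7, 32.4 and 40.7 CPM in KO. The genotypes overlapped in both genes.

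The 3 transcription factors had log2 fold changes between 0.45 and 0.48. Irf9, the DNA-binding part of the ISRE complex, was at 31.4, 23.96 and 30.3 CPM in WT and at 41.6, 31.9 and 43.97 CPM in KO and had the smallest log2 fold change of the members called higher (log2 fold change 0.45 ± 0.15 SE, adjusted p = 0.0486). Stat2 was at 31.1, 18.6 and 25.01 CPM in WT and at 33.4, 28.4 and 40.3 CPM in KO, and Irf7, the factor that amplifies interferon production, at 20.5, 10.99 and 18.2 CPM in WT and at 23.8, 19.97 and 26.02 CPM in KO. Neither was called (adjusted p = 0.181 and 0.379). Irf9 overlaps Rnf31 and Irf7 overlaps Phrf1 in the annotation, and fragments on the overlap were counted for both genes.

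Among the antiviral effectors 3 of 5 were called higher in KO. Mx2, a dynamin-like GTPase that blocks viruses, had the smallest adjusted p of all members and was at 2.02, 1.21 and 2.19 CPM in WT and at 7.03, 5.27 and 7.29 CPM in KO (log2 fold change 1.82 ± 0.36 SE, adjusted p = 0.0016). Rsad2 (viperin), which makes a nucleotide that stops viral RNA synthesis, was at 2.52, 0.958 and 1.88 CPM in WT and at 7.25, 4.35 and 6.64 CPM in KO (log2 fold change 1.72 ± 0.45 SE, adjusted p = 0.0147). Bst2 (tetherin), which holds budding virus at the cell surface, was at 4.102, 1.92 and 2.32 CPM in WT and at 11.6, 6.39 and 4.497 CPM in KO (log2 fold change 1.40 ± 0.33 SE, adjusted p = 0.006298). The 3 genes had no KO mouse within the WT range. Mx1 and Ifitm3 overlapped between genotypes, at 4.75, 2.43 and 2.94 CPM in WT and 3.11, 2.35 and 3.58 CPM in KO for Mx1 and at 10.4, 12.1 and 9.59 CPM in WT and 12.3, 14.8 and 9.78 CPM in KO for Ifitm3.

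Ifi27 was the single member called lower in KO at day 7. The gene encodes a mitochondrial protein and was at 11.1, 9.07 and 7.796 CPM in WT and at 3.65, 2.88 and 4.59 CPM in KO (log2 fold change -1.34 ± 0.35 SE, adjusted p = 0.0143), with no overlap. In the same set of less well understood genes Xaf1, a promoter of apoptosis, was called higher (log2 fold change 0.78 ± 0.25 SE, adjusted p = 0.0387), and Ifi44, Ifi35 and Rtp4 were not called, with log2 fold changes of 1.76, 0.35 and 0.56.

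Parp9 and Dtx3l, partners in a complex that adds ubiquitin and ADP-ribose to proteins at sites of DNA damage and in antiviral defence, were called higher in KO, as was Parp14. Parp9 was at 49.9, 43.6 and 38.7 CPM in WT and at 87.5, 60.2 and 64.6 CPM in KO (log2 fold change 0.68 ± 0.16 SE, adjusted p = 0.00592). Dtx3l was at 66.1, 62.9 and 46.8 CPM in WT and at 103, 67.7 and 78.8 CPM in KO (log2 fold change 0.50 ± 0.16 SE, adjusted p = 0.0401). Parp14, another ADP-ribosyltransferase, was the most highly counted of the 3 (log2 fold change 0.68 ± 0.22 SE, adjusted p = 0.0373), and the lowest KO mouse, at 104 CPM, was within the WT range of 75.4 to 111 CPM. Parp9 and Dtx3l overlap in the annotation, and fragments on the overlap were counted for both.

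Igtp and Iigp1 among the GTPases had the largest log2 fold changes of the 37. Igtp was at 9.89, 4.54 and 6 CPM in WT and at 76.04, 18.2 and 12.7 CPM in KO (log2 fold change 2.36 ± 0.60 SE, adjusted p = 0.0152). Iigp1, which breaks the vacuoles of parasites, was at 0.8995, 0.128 and 0.175 CPM in WT and at 13.2, 1.16 and 1.44 CPM in KO (log2 fold change 3.54 ± 0.97 SE, adjusted p = 0.0213). In both genes the KO mice were all above the WT mice, but KO replicate 1 was far above the other KO mice. Irgm1 was at 24.5, 26.5 and 21.8 CPM in WT and at 49.9, 29.8 and 25.98 CPM in KO (log2 fold change 0.54 ± 0.18 SE, adjusted p = 0.0398), and KO replicate 3 was within the WT range. Gbp2, a guanylate-binding protein that coats vacuoles and bacteria, was at 2.27, 5.94 and 3.72 CPM in WT and at 6.09, 2.42 and 4.76 CPM in KO (log2 fold change 0.17 ± 0.48 SE, adjusted p = 0.854), and its groups overlapped. Igtp overlaps Irgm2, another GTPase of the family, and fragments on the overlap were counted for both.

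**Figure D3:**
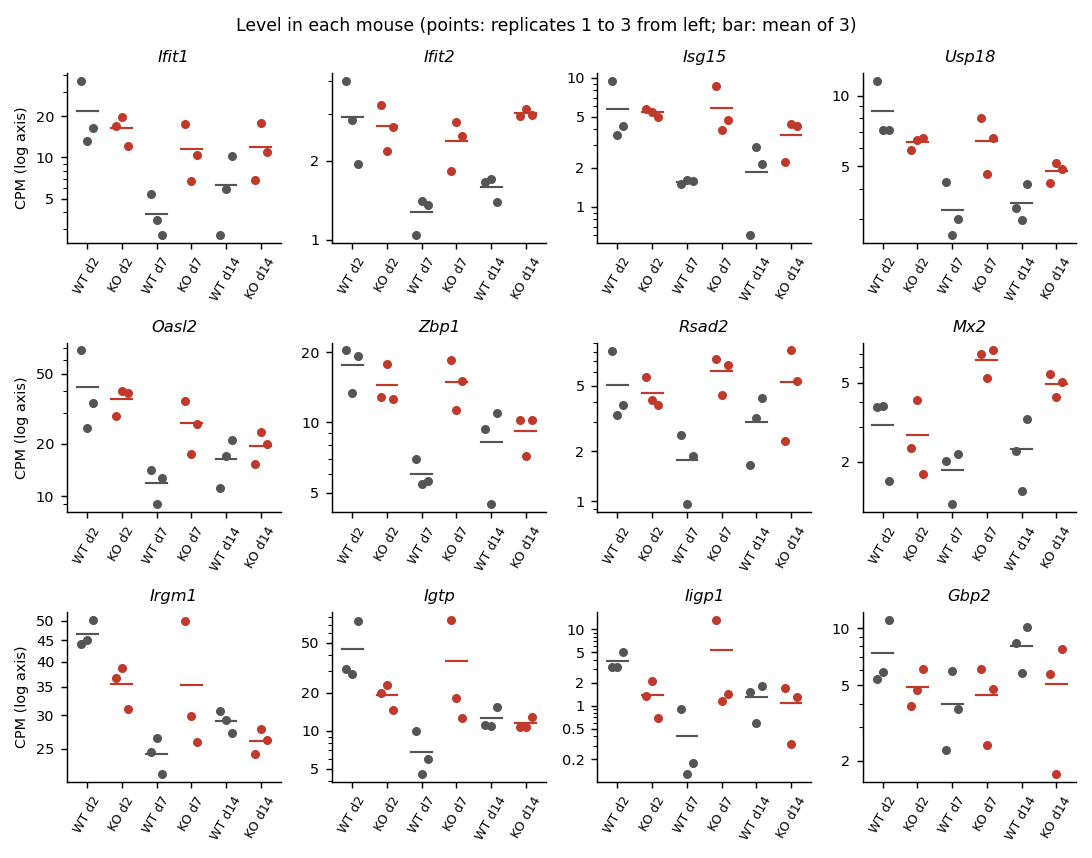
CPM on a log axis for 12 members in each mouse of the 6 groups (points, replicates 1 to 3 from left to right within a group, grey for WT and red for KO) with the mean of 3 (bar). The mean of WT day 7 was the lowest of the 3 WT means in each panel, and KO day 7 replicate 1 was far above the other KO mice for Igtp and Iigp1.

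The 3 GTPase calls at day 7 were lost without KO replicate 1, and also without WT replicate 2 or WT replicate 3. Without KO day 7 replicate 1, 7 members were called higher and 0 lower, and all 7 were of type I (Ifit2, Ifit1bl1, Isg15, Oasl1, Zbp1, Mx2 and Parp9). The log2 fold change of Igtp was then 1.18, that of Iigp1 1.56 and that of Irgm1 0.23, with adjusted p = 0.0703, 0.185 and 0.333. The log2 fold change of Ifi27 stayed between -1.49 and -1.18 whichever library was dropped, and its call was lost without KO replicate 1, KO replicate 2 or WT replicate 1. Dropping WT day 7 replicate 2 or replicate 3 left 10 calls each. Of the 20 calls, 6 held with any of the 6 libraries left out (Ifit1bl1, Isg15, Oasl1, Zbp1, Mx2 and Parp9).

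Markers of other cells moved with genotype at day 7. Markers of villus enterocytes, the absorptive cells above the crypt, summed to 5942 to 8422 CPM in WT and 9687 to 15690 CPM in KO, with no overlap, and of the 7 markers Fabp1 was called higher and Lct lower. Stem cell markers summed to 1011 to 1402 CPM in WT and 213 to 630 CPM in KO, and Lgr5 and Olfm4 of the 3 were called lower. KO replicate 1, the mouse with the high Igtp and Iigp1, had the highest enterocyte sum of its group, 15690 CPM, the lowest T cell sum of its group, 116 CPM, and the lowest stem cell sum of all libraries, 213 CPM. Their part in the higher interferon-stimulated genes was not tested.

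At day 14, 1 member was called. Ifit2 was at 1.66, 1.698 and 1.39 CPM in WT and at 2.95, 3.15 and 2.97 CPM in KO (log2 fold change 0.93 ± 0.27 SE, adjusted p = 0.0391), with no overlap, and 3.23% of all genes were called higher that day. The call was lost without any 1 of 5 of the 6 libraries, and DESeq2's Wald test called 2 members. The KO mice were above the WT mice for 6 members (12.4% of all genes), all of type I, namely Ifit2, Ifit3b, Usp18, Irf9, Stat2 and Mx2. Mx2 was at 2.27, 1.42 and 3.29 CPM in WT and at 5.53, 4.23 and 5.06 CPM in KO (log2 fold change 1.09 ± 0.36 SE, adjusted p = 0.0711), and was not called.

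The 2 classes pointed in different directions at day 14, though the difference was not tested. Among the type I genes 26 of 33 log2 fold changes were above 0, with a median of 0.25. Over all 37 members the median was 0.22, and it was 0.09 without WT day 14 replicate 1 (22 above 0), 0.35 without KO day 14 replicate 1 and 0.42 without WT day 14 replicate 3 (30 above 0). All 4 GTPases were below 0, from -0.67 for Gbp2 to -0.14 for Igtp. Igtp was at 11.1, 10.98 and 15.5 CPM in WT and at 10.7, 10.7 and 12.9 CPM in KO, and Iigp1 at 1.51, 0.592 and 1.81 CPM in WT and at 1.69, 0.315 and 1.28 CPM in KO. In both genes the groups overlapped and the difference was not called. The same 26 type I genes were above 0 at day 7 and day 14 in log2 fold change, as far as the sign goes, and Mx1, Ifih1, Dhx58, Oas3 and Ifi27 were below 0 on both days.

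The level in WT differed between the days, so KO was set against a different level on each day. Each day had its own 3 mice per genotype, so day and set of mice cannot be told apart. From day 2 to day 7 in WT, 9 members fell and none rose, where 0.3% of all genes were called lower. The count depended on the test, at 27 by DESeq2's Wald test, which called 6.82% of all genes in either direction, 19 with no filter on low counts (2.59%), 20 with a mean count of at least 50 (3.47%), 17 in a fit of only the groups compared (2.87%) and 4 with a replicate block (0.089%). The 9 were Usp18, Zbp1, Parp9, Irgm1, Dtx3l, Ifih1, Oasl2, Ifit1bl1 and Ifit2. The log2 fold changes were below 0 for 36 of 37 members with a median of -0.97 (all genes 0.01), and 32 were lower at an unadjusted p under 0.05, as were 11.5% of all genes. The WT mice of day 7 were all below those of day 2 for 30 members (14.1% of all genes). The mean of the WT day 7 group was the lowest of the 6 groups for 26 of 33 type I genes and for all 4 GTPases.

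Oasl2 went from 67.7, 24.6 and 34.2 CPM at day 2 to 14.1, 9.01 and 12.8 CPM at day 7 in WT (log2 fold change -1.81 ± 0.35 SE, adjusted p = 0.04199). Zbp1 went from 20.3, 13.3 and 19.4 CPM to 6.98, 5.43 and 5.61 CPM (log2 fold change -1.55 ± 0.27 SE, adjusted p = 0.0345). Irgm1 went from 44.1, 45.1 and 50.2 CPM to 24.5, 26.5 and 21.8 CPM (log2 fold change -0.94 ± 0.18 SE, adjusted p = 0.0361). In these 3 genes no day 7 mouse reached the lowest day 2 mouse. Larger folds in other members did not pass the test, with log2 fold changes of -3.08 for Iigp1, -2.69 for Igtp, -2.48 for Ifit1 and -2.38 for Ifi44. Dropping replicate 1 of day 2 or replicate 3 of day 7 left 0 calls, dropping replicate 3 of day 2 or replicate 1 of day 7 left 1, dropping replicate 2 of day 7 left 6, and dropping replicate 2 of day 2 gave 21. Of the 9 calls none held with every library left out in turn, while 36 or 37 of the 37 log2 fold changes stayed below 0.

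From day 2 to day 14 in WT, 4 members fell (Usp18, Ifih1, Zbp1 and Ifi35), where 0.871% of all genes were called lower. DESeq2's Wald test called 23 members (6.43% of all genes in either direction), the fit with no filter on low counts 13 (2.59%), the one with a mean count of at least 50 called 8 (5.41%), and a fit of only the groups compared 0 (0.14%). The log2 fold changes had a median of -0.81, 28 members were lower at an unadjusted p under 0.05 (10.2% of all genes), and the WT mice of day 14 were all below those of day 2 for 21 members (11.5% of all genes). Usp18 went from 11.6, 7.12 and 7.13 CPM to 3.32, 2.96 and 4.22 CPM (log2 fold change -1.30 ± 0.24 SE, adjusted p = 0.0164). Gbp2 was the 1 member above 0, at 5.37, 5.87 and 11.03 CPM at day 2 and 8.31, 5.77 and 10.2 CPM at day 14. Markers of other cells went in both directions, and none was called. At an unadjusted p under 0.05, 7 of 7 enterocyte markers (median log2 fold change -1.18) and 7 of 9 T cell markers (median -0.86) were lower, while 5 of 9 myeloid markers were higher (median 0.86). B cell and stromal markers had medians of 0.78 and 0.06, and the T cell sum was 198 to 274 CPM at day 2 and 96.0 to 147 CPM at day 14. Their part in the change of the members was not tested. Dropping replicate 1 of either day left 0 calls, dropping replicate 3 of day 2 or replicate 2 of day 14 left 2, and dropping replicate 2 of day 2 gave 11.

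The same days were also compared within KO, in comparisons added after the values had been seen. From day 2 to day 7 in KO, 1 member rose (7.21% of all genes) and 3 fell (8.8% of all genes), with a median log2 fold change of -0.12. Mx2 rose, from 2.33, 4.11 and 1.73 CPM to 7.03, 5.27 and 7.29 CPM (log2 fold change 1.27 ± 0.35 SE, adjusted p = 0.01796). Ifi27 fell, from 11.98, 10.4 and 12.9 CPM to 3.65, 2.88 and 4.59 CPM (log2 fold change -1.68 ± 0.35 SE, adjusted p = 0.00369), and Ifih1 and Oas3 fell with it, by log2 fold changes of -0.74 and -1.57. By day 14, 2 members were lower than at day 2 in KO, Ifih1 and Oas3, where 5.75% of all genes were called lower, and the median was -0.41. Ifih1 and Oas3 had log2 fold changes below 0 in both genotypes, from day 2 to day 7 -0.70 in WT and -0.74 in KO for Ifih1 and -1.80 and -1.57 for Oas3. Beside these, 3 of 3 stem cell markers (median -1.42), 2 of 7 enterocyte markers (median -0.45) and 2 of 9 T cell markers (median -0.58) were called lower in KO from day 2 to day 7, and 1 of 9 myeloid and 1 of 10 stromal markers higher. By day 14 in KO, 0 markers of the first 3 lists were called, and again 1 myeloid and 1 stromal marker higher. Their part in the change of the members was not tested. The call of Ifih1 held with any 1 library left out on both days and that of Ifi27 at day 7, while the count at day 7 was 2 without KO day 2 replicate 1, KO day 2 replicate 3 or KO day 7 replicate 1. At day 14 the count was 4 without KO day 14 replicate 2 and 1 without any of the other two day 14 libraries or without KO day 2 replicate 1 or 3.

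**Figure D4:**
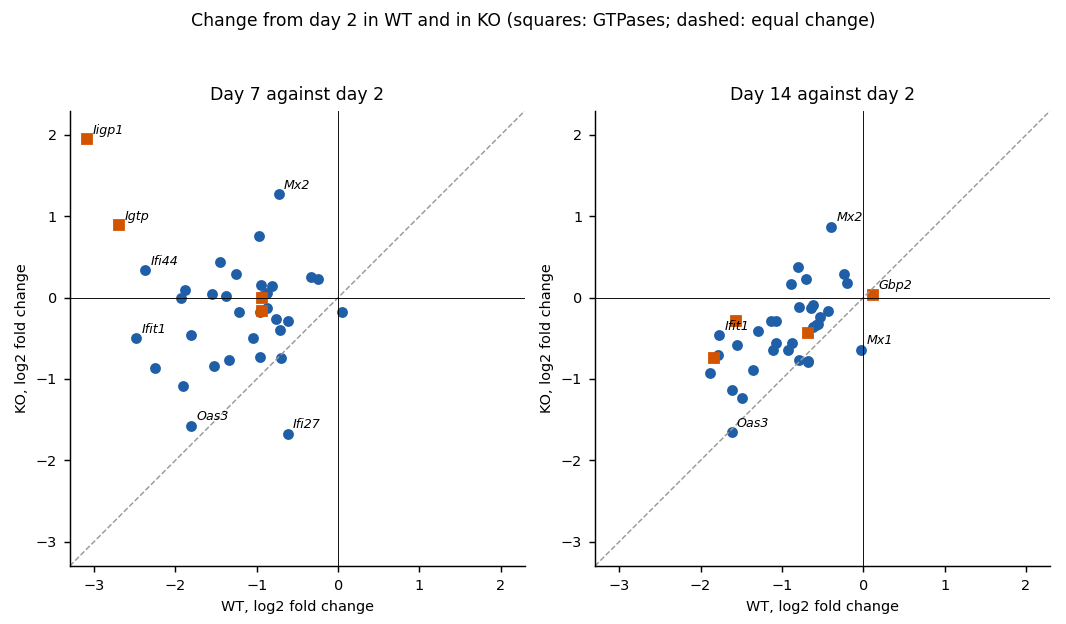
Log2 fold change from day 2 to day 7 (left) and to day 14 (right) of the 37 genes in WT (horizontal axis) and in KO (vertical axis), with circles for type I genes, squares for GTPases and a dashed line for equal change. At day 7, 36 of the 37 points lie left of 0 and 34 lie above the dashed line, with Igtp and Iigp1 at the upper left and Ifi27 below the line.

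The difference between the KO effects of day 7 and day 2 was tested directly. It was called for 8 members, all with a larger effect at day 7, where 1.33% of all genes were called in that direction. They were Zbp1, Usp18, Parp9, Mx2 and Ifit3b of the type I genes and Igtp, Irgm1 and Iigp1 of the GTPases. The smallest difference of effects was 0.93 ± 0.23 for Parp9 (SE, adjusted p = 0.0248) and the largest 5.03 ± 1.31 for Iigp1 (SE, adjusted p = 0.0437), both on the log2 scale. Without KO day 7 replicate 1 the difference was 3.03 for Iigp1 and 2.39 for Igtp, and Igtp was the 1 member called (adjusted p = 0.0942 and 0.0271). DESeq2's Wald test called 15 members (6.57% of all genes in either direction, against 4.37% by edgeR). Of the day 2 libraries, dropping KO replicate 1 left 0 calls, WT replicate 1 left 1, KO replicate 3 left 2 and WT replicate 3 left 5. Of the day 7 libraries, dropping WT replicate 2 left 0 calls, and dropping WT replicate 3 or KO replicate 1 left 1. From day 7 to day 14, 0 members had a called change of the KO effect (0% of all genes), 6 had an unadjusted p under 0.05 in edgeR, all toward a smaller effect (1.93% of all genes), and DESeq2's Wald test called 0.

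Interferons themselves were hardly seen. Of 21 interferon genes looked up, only Ifnk passed the filter on low counts, at a mean of 3.39 CPM in WT and 3.77 CPM in KO at day 7, and it was not called on any day. Ifng had 22 counts over all 18 libraries, Ifna13 had 15, and Ifnb1, Ifnl2 and Ifnl3 had 0. A count of 0 in a library means only that the gene was not detectable at this depth. The 6 receptor genes were tested and none was called between KO and WT on any day, with Ifnar1 at a mean of 50.03 CPM in WT and 53.6 CPM in KO and Ifnlr1 at 19.8 and 23.7 CPM at day 7.

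Among the 7 genes for kinases and transcription factors outside the 37 that are reported here, the 1 called between KO and WT was Irf5, a factor that acts downstream of nucleic acid sensors. It was higher in KO at day 7, with means of 10.3 CPM in WT and 14.3 CPM in KO (log2 fold change 0.46 ± 0.15 SE, adjusted p = 0.0374). Irf1, induced by interferon gamma, had means of 107 CPM in WT and 123 CPM in KO and was not called. None of the 10 sensors and adaptors tested (11 listed, with Mb21d1 not found by that symbol) and none of the 7 regulators was called at day 7.

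Related genes of the 2 classes outside the 37 were also tested. Of 25 further type I genes, 2 were higher in KO at day 7 (Parp12 and Lgals9) and 1 was lower (Ifitm2), with a median of 0.27, near or below the shares of 7.11% higher and 10.2% lower over all genes. Of 17 further interferon gamma genes tested (21 listed), 5 were higher (Gbp7, Irgm2, Ifi47, Cd274 and Ido1) and 0 lower, with a median of 0.67, where the same shares apply. Irgm2 had means of 7.38 CPM in WT and 19.4 CPM in KO (log2 fold change 1.37, adjusted p = 0.0256). Ido1, which breaks down tryptophan, had means of 2.73 and 8.05 CPM (log2 fold change 1.503, adjusted p = 0.0421). The KO mice were spread widely, from 10.9 to 33.7 CPM for Irgm2 (WT 4.73 to 10.2) and from 4.91 to 13.3 CPM for Ido1 (WT 1.28 to 4.64). Calls of these further genes without single libraries are not given. Fragments where Irgm2 overlaps Igtp were counted for both. From day 2 to day 7 in WT, 6 of the 17 fell (0.3% of all genes) and 13 were lower at an unadjusted p under 0.05 (11.5% of all genes), with a median of -1.41. At day 14, 0 of the 17 were called between KO and WT and the median was -0.17, while Parp12 was higher and Ifitm2 lower among the type I genes.

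Markers of blood cells overlapped between genotypes at day 7. Those of T cells and intraepithelial lymphocytes, a source of interferon gamma, summed to 84.5 to 220 CPM in WT and 116 to 183 CPM in KO, and 0 of the 9 tested (10 listed) were called. Myeloid markers summed to 27.2 to 34.1 CPM in WT and 19.9 to 38.5 CPM in KO, with 0 of 9 called, and B cell markers to 7.84 to 8.82 CPM and 6.54 to 23.4 CPM, with 0 of 5 called. Of 10 stromal markers (11 listed) Pecam1 was called higher in KO. From day 2 to day 7 in WT, enterocyte markers went from 8792 to 20080 CPM down to 5942 to 8422 CPM and T cell markers from 198 to 274 CPM to 84.5 to 220 CPM. All 7 enterocyte markers (median log2 fold change -1.07) and all 9 T cell markers (median -0.78) were below 0, 4 and 5 of them at an unadjusted p under 0.05, with 0 of either list called. Of all WT libraries, day 2 replicate 3 had the highest Igtp, at 74.8 CPM, and also the highest enterocyte and T cell sums, 20080 and 274 CPM. At day 14, T cell markers summed to 96.0 to 147 CPM in WT and 149.8 to 242 CPM in KO, with no overlap and 0 called, and enterocyte markers to 2960 to 8884 CPM in WT and 8056 to 16230 CPM in KO, with 1 of 7 called higher (Sis) and a median log2 fold change of 1.15. Whether these shifts carry the change of the interferon-stimulated genes was not tested.

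**Figure D5:**
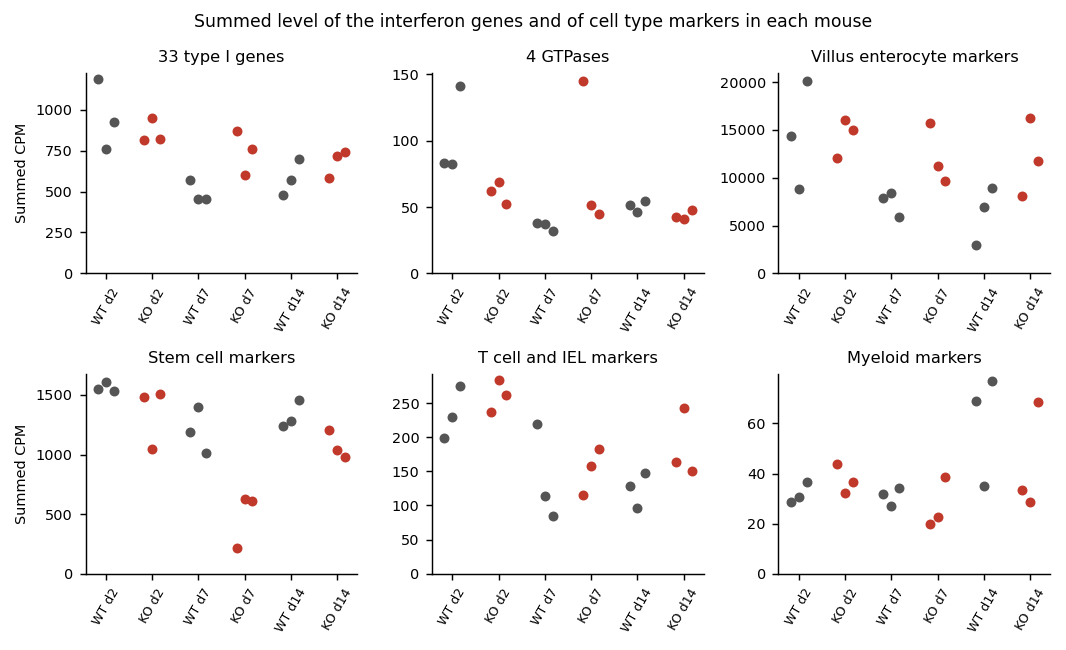
Summed CPM of the 33 type I genes, the 4 GTPases and 4 sets of cell type markers in each mouse of the 6 groups (grey for WT, red for KO). The type I sum was 453 to 568 CPM in WT and 602 to 868 CPM in KO at day 7. The GTPase sum of KO day 7 replicate 1 was 145 CPM against 44.8 and 51.6 CPM in the other KO mice. At day 7 the enterocyte sum was higher and the stem cell sum lower in KO, though Lct among the enterocyte markers was called lower.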

How the data were processed

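Crypt RNA of 18 mice, depleted of ribosomal RNA, was sequenced on a NovaSeq instrument. The deposited table holds raw counts per gene: the authors aligned reads to mm10 with STAR and counted fragments without regard to strand with featureCounts, counting a fragment once for each gene it overlapped and leaving out those that align to several places. The table's header names GENCODE M23 and the study's methods M26. Versions named in the submitters' processing notes are STAR 2.7.3 and featureCounts 1.6.4. Samples were grouped by the genotype and day in their labels, and 0 columns of per-sample values were left unused.

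From the counts, 20 genes linked to sex were removed before scaling, and edgeR 4.0.16 in R 4.3.3 was run with trimmed mean (TMM) scaling, its default filter on low counts by group and a robust quasi-likelihood fit of 6 group means to all 18 libraries. The Benjamini-Hochberg adjustment covered the 21349 genes tested, and a gene was called at an adjusted p under 0.05. CPM are counts over the TMM effective library size. SE is the absolute log2 fold change over the root of F. The sex of single mice was not modelled. Replicates are separate mice, and total counts were 12844642 to 31493484, so low genes such as Iigp1 and Ifi44 carry more counting error. The fit was tested on simulated data.

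The members and gene lists were chosen with earlier results of these data known. By the rule set with the design, values by library are given for up to 12 called members with the smallest adjusted p, the 2 members highest and the 2 lowest in log2 fold change at each day, and fixed examples of each role. The other members are given by ranges and counts. Alternatives were DESeq2 1.42.0, its size factors, other filters, genes linked to sex kept, fits of only the groups compared, a replicate block and leaving out each library. An item withheld from this text is not reported here.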

Additional observations from a re-analysis of the deposited data

Results flagged for a closer look

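For 8 of the 37 genes the log2 fold change of KO over WT differed between day 7 and day 2 by edgeR's test of that difference, each larger at day 7, where 1.33% of all genes were called in that direction. DESeq2's Wald test called 15. On the log2 scale the difference of effects was 5.03 for Iigp1, 3.58 for Igtp and 0.93 for Irgm1 among the GTPases, and 2.00 for Mx2, 1.73 for Ifit3b, 1.601 for Zbp1, 1.39 for Usp18 and 0.93 for Parp9 among the type I genes. Without KO day 7 replicate 1 the difference was 3.03 for Iigp1, 2.39 for Igtp and 0.61 for Irgm1, and Igtp was the 1 gene still called. The adjusted p with all libraries ran from 0.0225 for Zbp1 to 0.0489 for Ifit3b. None of the 8 calls held with each of the 12 libraries left out in turn, and the counts without single libraries ran from 0 to 9. The difference joins a KO effect below 0 at day 2 in each of the 8 genes to one above 0 at day 7.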

How the results depend on the processing

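The count of members called was 0 for KO against WT at day 2, 20 at day 7 and 1 at day 14, 9 and 4 for WT at days 7 and 14 against day 2, 4 and 2 for KO at the same days, 8 for the change of the KO effect from day 2 to day 7 and 0 from day 7 to day 14. DESeq2 size factors and keeping the genes linked to sex left each count within 1.5 times. With no filter on low counts WT gave 19 and 13 (2.59% of all genes called in each), and with a mean count of at least 50 WT gave 20 and 8 (3.47% and 5.41%) and KO against WT at day 14 gave 0. Fitting only the groups compared gave 17 and 0 for WT (2.87% and 0.14%) and 6 for KO at day 14 against day 2 (12.7%). DESeq2's Wald test gave 2 at day 14 (9.76% of all genes), 27 and 23 for WT (6.82% and 6.43%), and 15 for the change of effect from day 2 to day 7 (6.57%). In the fit as reported the shares of all genes called were 7.92%, 0.553% and 1.61%, and 4.37%. With the replicate number as a block, the count at day 14 was 0, WT at day 7 gave 4 and KO at day 14 against day 2 gave 1. The block gave 17 at day 7, of which 16 were shared. The correlation of deviations of same-numbered KO and WT libraries of a day ran from -0.159 to 0.381 (9 pairs, median 0.160). For libraries of different number and group it ran from -0.467 to 0.316 (90 pairs, median -0.022). The ranges overlap and the pairs are few, so whether the numbers pair the mice cannot be told. The cause of these shifts was not tested.

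Leaving out single libraries gave 0 to 0 at day 2, 7 to 19 at day 7, 0 to 1 at day 14, 0 to 21 and 0 to 11 for WT, 2 to 3 and 1 to 4 for KO, 0 to 9 for the change of effect to day 7 and 0 to 0 for that to day 14. No called value turned its direction under any alternative run. For members near 1 CPM, counting error adds to the spread between 3 mice.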

Other observations

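Tamoxifen was given to both genotypes, and the levels of the type I genes in WT crypts lay between 760 and 1187 CPM in sum at day 2, between 453 and 568 CPM at day 7 and between 480 and 702 CPM at day 14. In KO crypts the sums were 814 to 951 CPM, 602 to 868 CPM and 582 to 743 CPM. For 24 of the 37 genes the WT day 2 group had the highest mean of the 6 groups, and for 8 genes the KO day 7 group did. WT day 2 replicate 1 alone was the highest of all 18 libraries for 21 of the 37 genes. The order of the group means without it is not given. No group without tamoxifen was analysed here, so the level before treatment is not given by these data.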
